A study of Drosophila melanogaster with 12 samples.

Results

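In cultured Drosophila S2R+ cells, 23 genes had fewer 3'-end reads in every library from cells transfected to overexpress an ELAV/Hu protein than in the untreated library of the same replicate number. They were chosen from 13777 genes in the deposited table by their values in all 8 libraries analysed. A gene had to reach at least 5 CPM (reads of a gene scaled to a fixed library total) in both untreated libraries, which 5951 genes did, and to stand at no more than 0.67 times the untreated level in each of the 6 transfected libraries, each compared with untreated cells of its own number. Of the 5951, 27 met these limits (0.454%), and 4 of them were set aside by name: Sirup, fat-spondin, mRpS18C and an rRNA precursor gene. Because the ratios to untreated cells chose the genes, these ratios are given below as a description, with no test.

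There were 4 groups of 2 libraries each, all from S2R+ cells and all read from polyadenylated 3' ends, starting with 2 ug of total RNA. Untreated cells had no treatment according to the labels, and the others overexpressed wild-type Elav, Fne or Rbp9 after transfection with the Effectene reagent (groups ElavWT, FneWT and Rbp9WT). The labels do not say whether untreated cells received reagent or an empty vector, nor what the constructs carry, so transfection and the introduced protein cannot be told apart in any ratio to untreated cells. Libraries of the RRM mutant proteins (4 of the 12 in the series) are not analysed here.

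S2R+ is a cell line derived from fly embryos with features of hemocytes, the insect blood cells, which engulf debris, secrete matrix and take part in clotting and melanization. Elav, Fne (found in neurons) and Rbp9 are related RNA-binding proteins with RRM domains that bind uridine-rich RNA, and in neurons the family favours the use of distal poly(A) sites, which gives messages longer 3' UTRs. A level here is the sum of 3' ends assigned to a gene, whichever poly(A) site was used.

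Recovered depth ran from 4694825 to 14391952 reads, and the deepest library was untreated replicate 1. Genes named as rRNA took 2.91 to 5.91% of reads in the libraries numbered 1 and 15.4 to 24.8% in those numbered 2. In the introduced genes, Rbp9 stood at 713 and 58.8 CPM in the libraries labelled Rbp9WT against 3.34 and 2.35 in untreated cells, and fne at 97.4 and 48.0 CPM in those labelled FneWT against 6.67 and 1.91. The fne level was also high in replicate 1 of ElavWT (49.8 CPM) and of Rbp9WT (115 CPM), the latter above the 97.4 CPM of FneWT replicate 1. The elav level in the libraries labelled ElavWT was 29.2 and 26.6 CPM, between the untreated 24.9 and 37.3. In those labelled FneWT elav was higher, at 42.7 and 59.7 CPM, and in those labelled Rbp9WT it stood at 33.3 and 32.7 CPM. The reason for these elav and fne levels was not tested, and the labels do not say what the constructs carry. This check therefore does not settle the ElavWT or the FneWT label, and the group names are used below as labels of the libraries. Of 17 hemocyte markers 12 averaged 1 CPM or more in untreated cells, among them srp, ush, Pxn, SPARC and crq, while NimC1, PPO1 and gcm were at 0. Their sum was 1163 to 2258 CPM in untreated and 1185 to 2745 CPM in transfected libraries. Muscle markers (4 of 7 at 1 CPM or more) summed to 20.4 to 22.9 CPM in untreated and 29.8 to 253 CPM in transfected libraries, and germline markers (2 of 4, vas at 0) to 21.2 to 21.4 and 40.9 to 167 CPM. Neuronal markers (7 of 10) summed to 93.6 to 146 and 120 to 361 CPM, and fat body markers (1 of 8, with 3 at 0) to 1.25 to 5.14 and 7.77 to 15.8 CPM. The germline sum was carried by osk, at 1.88 and 1.17 CPM in untreated and 23.1 to 149 CPM in transfected libraries, while aub stood at 18.7 and 20.1 CPM in untreated and 7.88 to 17.3 CPM in transfected libraries. The muscle and fat body sums separated transfected from untreated libraries as well, and the part of these shifts in the levels of the 23 genes was not tested. In bulk RNA, fewer cells holding a message and less message per cell cannot be told apart.

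Genes low in all 6 libraries were less common than genes high in all 6. The count by number of libraries at or below the limit went from 3585 genes with none to 256 with 4, 80 with 5 and 27 with 6. The opposite limit, at least 1/0.67 times untreated in all 6, held 190 genes (3.19%). On this scale 87.6% of the genes past either limit were on the high side. Scaled instead by the median ratio over genes, 110 genes were low and 127 high in all 6 libraries, so that 53.6% were on the high side.

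**Figure D1:**
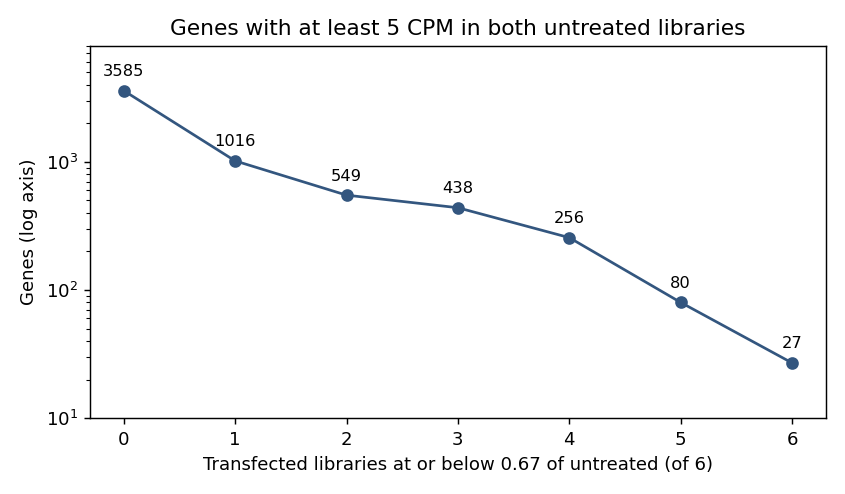
Number of genes (log axis) with at least 5 CPM in both untreated libraries, by how many of the 6 transfected libraries stood at or below 0.67 of untreated cells with the same replicate number. Only 27 of 5951 genes were at or below the limit in all 6, against 80 in 5 and 3585 in none.

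Together the 23 genes summed to 1816 and 1644 CPM in the untreated libraries (replicates 1 and 2). Libraries labelled ElavWT summed to 670 and 768 CPM, those labelled FneWT to 684 and 705, and those labelled Rbp9WT to 625 and 806. In the order replicate 1, replicate 2, the median ratio over the 23 was 0.405 and 0.493 (ElavWT), 0.398 and 0.445 (FneWT) and 0.335 and 0.529 (Rbp9WT). Over all 5951 genes the corresponding medians were 1.06 and 1.02, 1.12 and 0.952, and 1.15 and 1.16. Relative to these medians, the 23 genes stood at 0.381 and 0.485, 0.356 and 0.468, and 0.292 and 0.455.

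**Figure D2:**
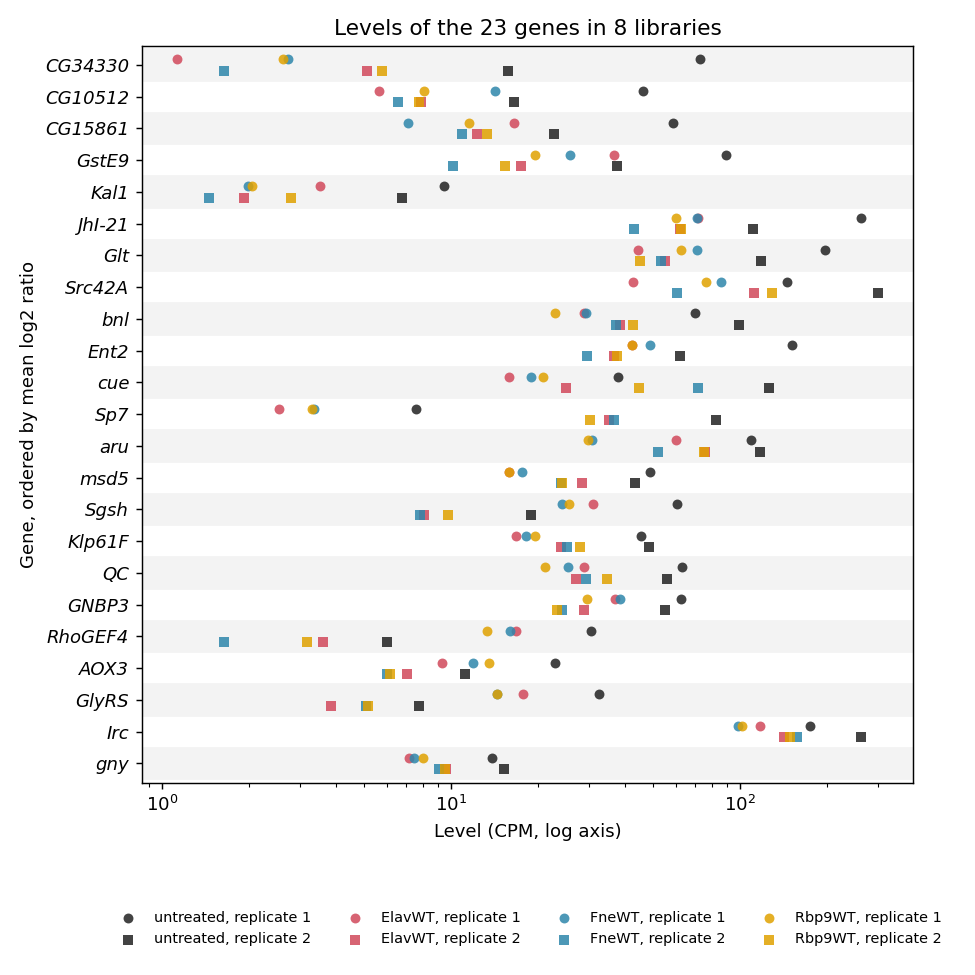
Level of each of the 23 genes in CPM (log axis) in the 8 libraries, with colour for the group and shape for the replicate number; each point is 1 library. Black untreated points lie to the right of the coloured points of the same shape for every gene, as the choice of genes required, and for Sp7 and GlyRS the replicate numbers lie farther apart than the groups.

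The genes are ordered below by their known roles, sorted by hand for reading only, and no role was tested for being common among them. The lowest ratios belonged to CG34330, CG10512 and CG15861, protein-coding genes named here only by their annotation numbers. CG34330 (chrX:19068275-19068973, minus strand, dm6; a single exon with a 3' UTR of 346 bases) stood at 72.5 and 15.7 CPM in untreated cells. Against this, 1.13 and 5.11 CPM were found (ElavWT), 2.73 and 1.64 (FneWT) and 2.63 and 5.78 (Rbp9WT). All 6 transfected values lay below both untreated ones, and the untreated replicates themselves differed widely. The ElavWT replicate 1 value rests on 8 reads against 1044, a ratio of 0.0155 with a 95% counting interval of 0.00669 to 0.0307. The highest ratio, in Rbp9WT replicate 2, was 0.368.

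CG10512 (chr3L:21202920-21208092, plus strand) stood at 46.4 and 16.6 CPM untreated, against 5.64 and 7.88 (ElavWT), 14.2 and 6.55 (FneWT) and 8.10 and 7.77 (Rbp9WT). Its transfected values, from 5.64 to 14.2 CPM, lay under both untreated values. CG15861 (chr2R:24943392-24945201, minus strand) stood at 58.9 and 22.8 CPM untreated, against 16.5 and 12.4 (ElavWT), 7.08 and 10.9 (FneWT) and 11.5 and 13.4 (Rbp9WT). On the opposite strand it overlaps CG3770, which stood at 216 and 81.8 CPM untreated, against 35.4 and 56.2 (ElavWT), 68.0 and 45.7 (FneWT) and 44.9 and 48.2 (Rbp9WT). Both genes of this overlapping pair were thus lower in all 6 libraries. CG3770 does not lie over the annotated 3' end of CG15861. No source used here says whether counting used strand, and whether reads of CG3770 were counted for CG15861 was not tested.

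JhI-21, Ent2, GstE9 and AOX3 encode transporters or metabolic enzymes. JhI-21 (chr2L:12051755-12056042, minus strand) encodes an amino acid transporter and stood at 263 and 111 CPM untreated, against 71.9 and 62.0 (ElavWT), 71.1 and 43.1 (FneWT) and 59.9 and 62.6 (Rbp9WT). Ent2 (chr2L:6562325-6564709, plus strand), an equilibrative nucleoside transporter, stood at 152 and 62.1 CPM, against 42.3 and 36.6 (ElavWT), 49.0 and 29.7 (FneWT) and 42.5 and 37.6 (Rbp9WT). For both transporters the transfected values lay together below either untreated value, and the ratios were lower in replicate 1, where untreated cells were higher.

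GstE9 (chr2R:18409048-18409835, plus strand), an epsilon-class glutathione transferase of detoxification, stood at 89.7 and 37.5 CPM untreated, against 36.8 and 17.5 (ElavWT), 25.8 and 10.2 (FneWT) and 19.5 and 15.3 (Rbp9WT). The ElavWT replicate 1 value came close to the lower untreated value. AOX3 (chr3R:15542748-15548188, minus strand), an aldehyde oxidase, stood at 23 and 11.2 CPM, against 9.30 and 7.03 (ElavWT), 11.9 and 6.0 (FneWT) and 13.6 and 6.18 (Rbp9WT). Its FneWT and Rbp9WT values of replicate 1 exceeded untreated replicate 2, so the groups overlapped.

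Several genes act outside the cell or at its surface. Glt (chr2L:8672698-8676804, plus strand) encodes glutactin, a glycoprotein of basement membranes, and stood at 197 and 118 CPM untreated, against 44.4 and 55.0 (ElavWT), 71.1 and 53.3 (FneWT) and 62.4 and 45.2 (Rbp9WT). Kal1 (chr3R:24141395-24147490, plus strand), the fly counterpart of the extracellular protein anosmin, stood at 9.45 and 6.76 CPM, against 3.52 and 1.92 (ElavWT), 1.99 and 1.46 (FneWT) and 2.05 and 2.79 (Rbp9WT). Every transfected value of either gene was below both untreated values, although for Kal1 the values rest on as few as 8 reads.

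The ligand bnl (branchless, chr3R:19794073-19836817, minus strand) is the FGF that guides tracheal branching. It stood at 70.2 and 99.7 CPM untreated, against 28.9 and 38.6 (ElavWT), 29.5 and 37.3 (FneWT) and 22.9 and 42.8 (Rbp9WT). Its 6 ratios stayed between 0.327 and 0.429, and the groups did not overlap. The membrane protein gene cue (cueball, chr3L:1503226-1517271, minus strand) stood at 37.8 and 127 CPM untreated, against 15.9 and 25.1 (ElavWT), 18.9 and 71.5 (FneWT) and 20.9 and 44.6 (Rbp9WT). The replicate 2 values of FneWT and Rbp9WT exceeded untreated replicate 1. The 3' end of cue lies under Psa, on the opposite strand, which stood at 185 and 146 CPM in untreated cells and at 138 to 497 CPM in the transfected libraries.

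Sp7, GNBP3 and Irc encode proteins of melanization or immunity, although none of the 23 was on the hemocyte or the Toll and Imd list. Sp7 (chr3R:7759786-7763947, plus strand) encodes a serine protease of the melanization cascade and stood at 7.57 and 82.8 CPM in untreated cells, a 10.9-fold difference between replicates. Against this, 2.54 and 35.1 CPM were found (ElavWT), 3.36 and 36.7 (FneWT) and 3.31 and 30.3 (Rbp9WT). The replicate numbers differed more than the groups, yet the 6 ratios ran only from 0.335 to 0.444. GNBP3 (chr3L:8955021-8956551, plus strand), a beta-glucan recognition protein upstream of Toll, stood at 62.7 and 54.9 CPM, against 37.1 and 29.0 (ElavWT), 38.4 and 24.2 (FneWT) and 29.7 and 23.3 (Rbp9WT). Irc (chr3R:17002875-17007208, plus strand), the immune-regulated catalase, stood at 176 and 262 CPM, against 117 and 142 (ElavWT), 98.7 and 158 (FneWT) and 102 and 149 (Rbp9WT). GNBP3 and Irc did not overlap between untreated and transfected libraries, and Irc had ratios near the limit, from 0.542 to 0.667.

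Among genes of signalling, Src42A (chr2R:5981844-6012795, plus strand), a Src-family tyrosine kinase, stood at 146 and 302 CPM untreated, against 42.7 and 112 (ElavWT), 86.0 and 60.4 (FneWT) and 76.2 and 130 (Rbp9WT). The adaptor gene aru (arouser, related to Eps8; chr2L:861849-868354, minus strand) stood at 109 and 117 CPM, against 60.2 and 75.6 (ElavWT), 30.7 and 52.2 (FneWT) and 29.9 and 75.3 (Rbp9WT). Neither gene overlapped between untreated and transfected libraries. RhoGEF4 (chr3L:7321099-7323411, minus strand), a guanine nucleotide exchange factor gene, stood at 30.6 and 6.02 CPM, against 16.8 and 3.62 (ElavWT), 16 and 1.64 (FneWT) and 13.4 and 3.19 (Rbp9WT). In RhoGEF4 all replicate 1 values, treated or not, exceeded all replicate 2 values.

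The mitotic genes Klp61F and msd5 were also among the 23. Klp61F (chr3L:1241568-1245910, minus strand), the kinesin-5 motor that pushes spindle poles apart, stood at 45.7 and 48.6 CPM untreated, against 16.8 and 24.1 (ElavWT), 18.1 and 25.3 (FneWT) and 19.5 and 27.9 (Rbp9WT). The untreated replicates were close, so the limit itself placed the transfected values below both. The augmin subunit gene msd5 (chr3L:1332307-1333146, minus strand; augmin recruits gamma-tubulin to spindle microtubules) stood at 48.7 and 43.5 CPM, against 15.9 and 28.3 (ElavWT), 17.6 and 24 (FneWT) and 15.9 and 24.3 (Rbp9WT). Its 3' end lies under msd1, a further augmin subunit gene on the opposite strand. The msd1 level was 163 and 51.1 CPM untreated, against 54.4 and 53.3 (ElavWT), 58.0 and 40.9 (FneWT) and 67.2 and 41.4 (Rbp9WT), lower than untreated in each replicate 1 and near untreated in replicate 2.

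Enzymes of glycan, peptide and tRNA chemistry completed the set. QC (chr3L:5900835-5902456, minus strand), a glutaminyl cyclase that caps peptides with pyroglutamate, stood at 63.3 and 56.1 CPM untreated, against 28.9 and 27.1 (ElavWT), 25.5 and 29.3 (FneWT) and 21.2 and 34.7 (Rbp9WT). The glucosyltransferase gene gny (chr2L:10380103-10382864, plus strand), which acts in building the N-glycan precursor, stood at 13.8 and 15.3 CPM, against 7.19 and 9.59 (ElavWT), 7.46 and 9.10 (FneWT) and 7.99 and 9.56 (Rbp9WT). Groups stood apart for both, and gny had the narrowest spread of the 23. Sgsh (chr3R:18911053-18912922, minus strand), whose human counterpart removes sulfate from heparan sulfate, stood at 60.9 and 18.9 CPM, against 31.2 and 8.09 (ElavWT), 24.2 and 7.82 (FneWT) and 25.6 and 9.76 (Rbp9WT). GlyRS (chr3L:15095142-15097686, plus strand), the glycyl-tRNA synthetase, stood at 32.4 and 7.78 CPM, against 17.8 and 3.83 (ElavWT), 14.4 and 5.09 (FneWT) and 14.5 and 5.18 (Rbp9WT). For Sgsh and GlyRS every replicate 1 value exceeded untreated replicate 2, so these genes were lower only when read within a replicate number.

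The 6 ratios of a gene were close together for some genes and far apart for others. On the log2(CPM + 1) scale, the mean difference from untreated cells over the 6 libraries ran from -3.20 for CG34330 to -0.72 for gny. By label, that of CG34330 was -3.28 ± 2.59 in ElavWT, -3.48 ± 1.16 in FneWT and -2.82 ± 2.15 in Rbp9WT (mean ± SD, n = 2). That of bnl was -1.30 ± 0.07, -1.31 ± 0.12 and -1.39 ± 0.26 in the same order (n = 2). The highest of a gene's 6 ratios was 1.21 times the lowest for gny and 23.6 times for CG34330, with a median of 2.00 over the 23. The 7 genes CG34330, CG10512, GstE9, Kal1, Glt, bnl and Sp7 stood at or below 0.5 in all 6 libraries, and 89 of the 138 ratios did. All 138 ratios were chosen at or below 0.67, so their counting intervals describe the read numbers and test nothing. The 95% exact counting interval lay wholly below 1 for 135 of 138 ratios. The exceptions were RhoGEF4 in ElavWT replicate 2 (17 against 41 reads; ratio 0.601, interval 0.320 to 1.08) and GlyRS in replicate 2 of FneWT (0.654, 0.399 to 1.05) and of Rbp9WT (0.665, 0.399 to 1.08). For 35 ratios the interval included 0.67 itself. These intervals cover counting error only, since reads without molecular identifiers are not independent molecules.

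**Figure D3:**
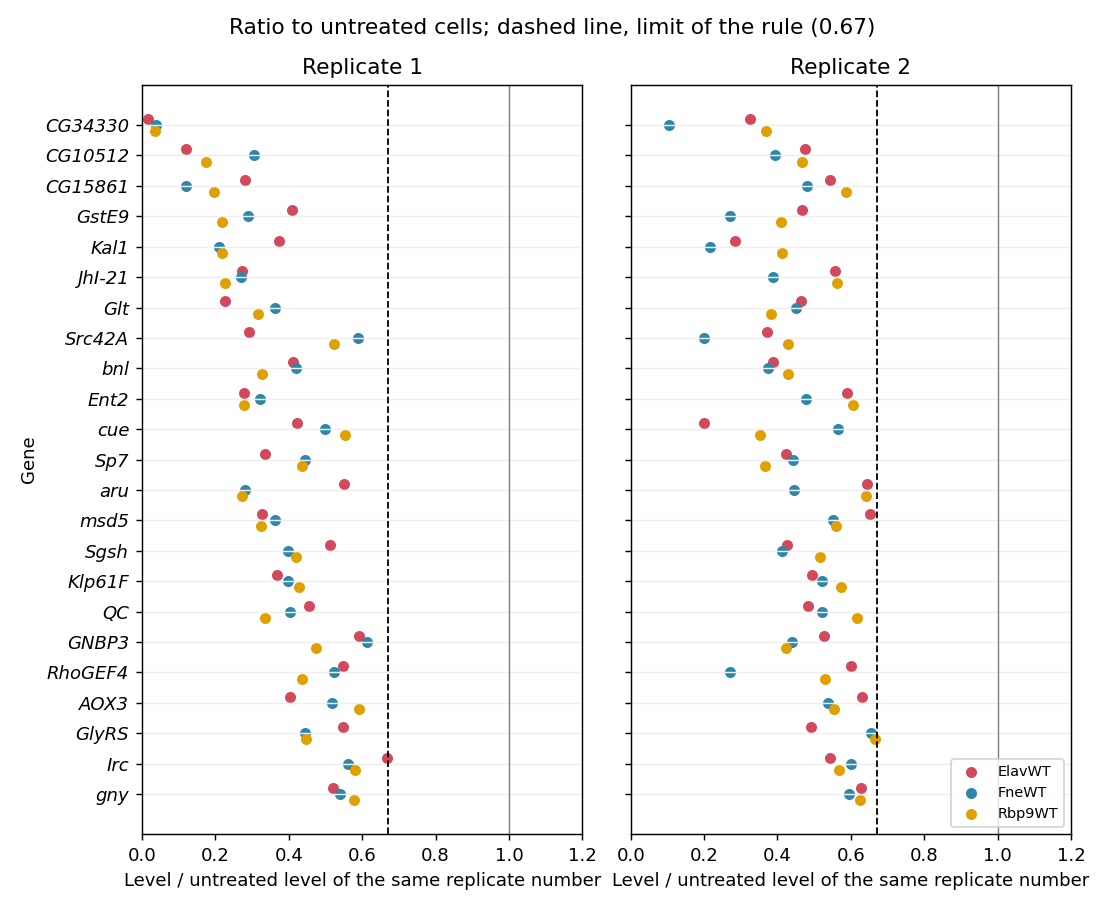
Ratio of each transfected library to the untreated library with the same replicate number for the 23 genes, by replicate; the dashed line is the limit of 0.67 and the solid line marks equality. The points spread from 0.0155 (CG34330, ElavWT replicate 1) to 0.667 (Irc, ElavWT replicate 1), and most genes lie farther left in replicate 1 than in replicate 2.

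The untreated replicates were unequal for many of the 23. Of these genes, 10 (43.5%) had an untreated replicate 1 level at least 2 times that of replicate 2, compared with 22.8% of the 5951 genes. Src42A, cue and Sp7 had the opposite inequality of that size, as did 9.19% of the 5951 genes. The mean log2 ratio was lower in replicate 1 for 18 of 23 genes (78.3%), and for 44.3% of all 5951. In 17 of 23 genes all 6 transfected libraries lay below both untreated ones, which 3.92% of the 5951 genes did. Nothing is read from that count, since the ratios that chose the genes use the same values. The 6 with overlap were cue, Sp7, Sgsh, RhoGEF4, AOX3 and GlyRS. Without untreated replicate 1 the same limits were met by 57 genes and without untreated replicate 2 by 568, which hold the 23 by construction, since fewer libraries set fewer conditions.

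Values were close on either side of the limit. Just inside were Irc (highest ratio 0.667, ElavWT replicate 1), GlyRS (0.665, Rbp9WT replicate 2) and msd5 (0.652, ElavWT replicate 2). Just outside were mthl2, a methuselah-like receptor gene (0.680, Rbp9WT replicate 1), Cyp310a1, a cytochrome P450 gene (0.681, Rbp9WT replicate 2), and LanB1, a laminin subunit gene of basement membranes (0.682, Rbp9WT replicate 2). LanB1 stood at 270 and 109 CPM untreated, against 66.1 and 64.5 (ElavWT), 124 and 65.3 (FneWT) and 140 and 74.5 (Rbp9WT).

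Differences between the proteins were not what chose the genes, although the limit capped each transfected level, and these were tested with limma over all 9114 genes that averaged 1 CPM or more. The library with the lowest ratio of each gene varied. In replicate 1 ElavWT was lowest for 10 genes, FneWT for 5 and Rbp9WT for 8, whereas in replicate 2 ElavWT was lowest for 5, FneWT for 15 and Rbp9WT for 3. The same protein was lowest in both replicates for 6 genes. None of the 23 passed an adjusted p of 0.05 between any pair of proteins with group as the only term, where 0% of all genes passed in each of the 3 contrasts. None of the 23 had an unadjusted p under 0.05 there, against 62, 88 and 25 of all genes (FneWT against ElavWT, Rbp9WT against ElavWT, Rbp9WT against FneWT). edgeR on the recovered reads also called 0 of all genes in each contrast, and DESeq2 called 1, 4 and 1, none among the 23.

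With the replicate number as a further term, 0.176% of all genes passed between FneWT and ElavWT, 0.592% between Rbp9WT and ElavWT and 0% between Rbp9WT and FneWT. None of the 23 was among them. At an unadjusted p under 0.05 there were 2 of the 23, cue and aru, both between FneWT and ElavWT. The share of all genes at that unadjusted limit is not given here, so nothing is read from this count. The cue level was higher in FneWT than in ElavWT by 0.85 on the log2(CPM + 1) scale (SE 0.32, 95% interval 0.19 to 1.51, limma adjusted p = 0.479). The aru level was lower in FneWT by a log2 difference of -0.74 (95% interval -1.37 to -0.10, limma adjusted p = 0.543). For Rbp9WT against ElavWT the differences ran from -0.53 (GstE9) to 0.59 (cue), and for Rbp9WT against FneWT from -0.26 (cue) to 0.66 (CG34330). The median difference over the 23 was -0.04, -0.02 and 0.08 in the 3 contrasts, beside 0.04, 0.15 and 0.12 over all tested genes. The 95% intervals reached from 0.587 to 1.70 on either side of the estimate, with a median of 0.653, so differences between proteins smaller than that could not be resolved with 2 libraries a group.

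**Figure D4:**
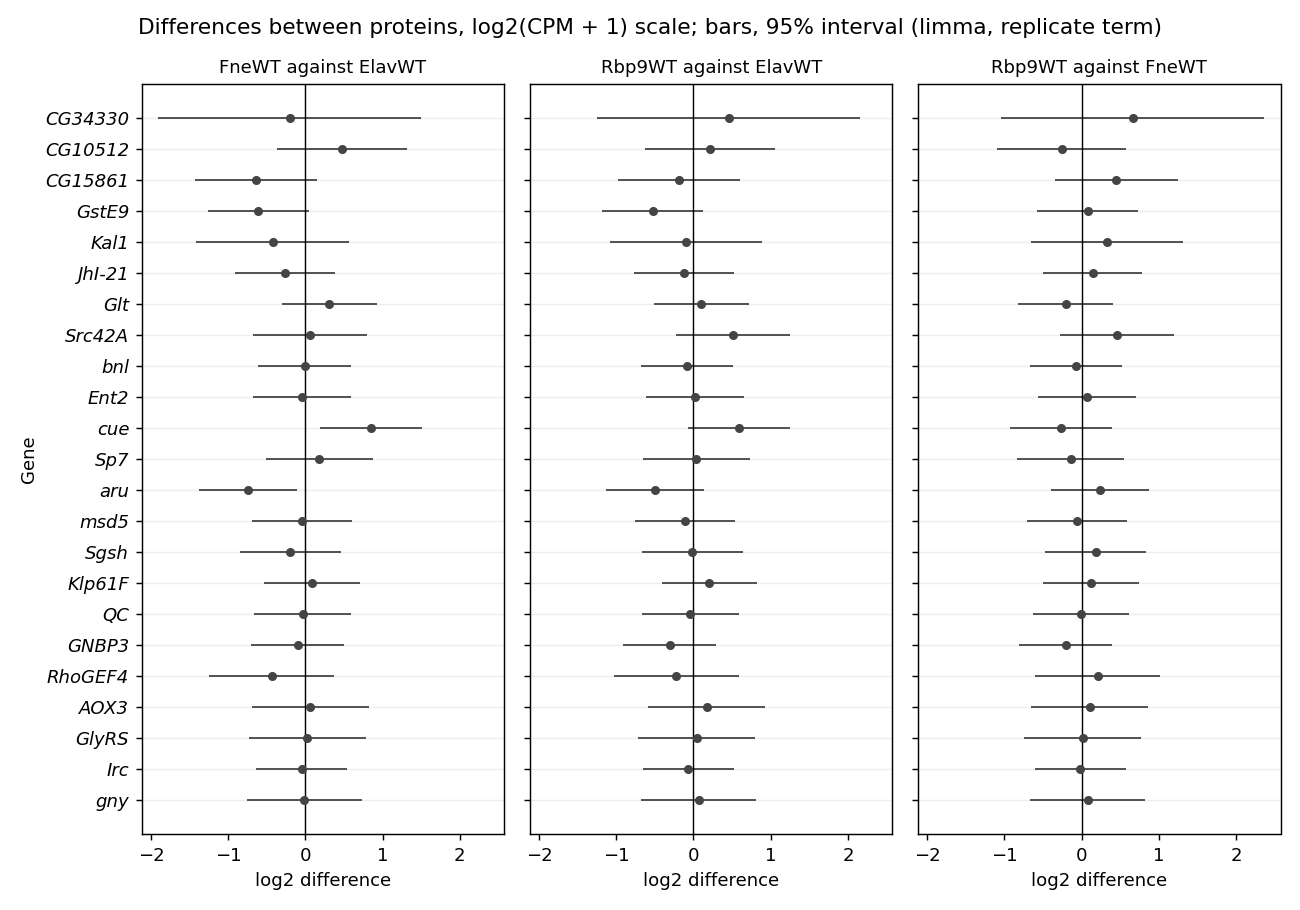
Log2 difference between proteins for each of the 23 genes, with its 95% interval from limma with the replicate term (2 libraries a group). All intervals include 0 apart from those of cue (0.85) and aru (-0.74) between FneWT and ElavWT, neither of which passed after adjustment.

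All 23 were protein coding, and the choice had itself left out several kinds of noncoding symbols. The annotation is set here as description beside all 5951 genes, of which 5839 were coding, and the 190 genes on the high side, of which 186 were. The longest annotated 3' UTR had a median of 271 bases over the 23, 344 over the 5822 of the 5951 with one, and 823 over 185 of the 190. Only Src42A (1184 bases) and gny (1083 bases) reached 1000 bases, 8.70% of the 23, compared with 20.2% of all and 44.9% of the genes on the high side. A single annotated 3' end was found for 17 of 23 (73.9%), compared with 64.1% of all and 47.9% of the high side. Genes of the 23 spanned a median of 4107 bases, between 2931 for all and 7290 for the high side. By chromosome arm 8 lay on 3L, 6 on 3R, 5 on 2L, 3 on 2R and 1 on X. In that order these are 34.8%, 26.1%, 21.7%, 13.0% and 4.35% of the 23. Of the 5899 annotated genes among the 5951, the arms held 18.7%, 24.1%, 17.2%, 20.7% and 18.0%.

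Overlap with another annotated gene was found for 14 of 23 (60.9%, compared with 52.9% of all), in 13 on the opposite strand. A partner lay over the annotated 3' end in 11, and for JhI-21, Glt and Klp61F the partner (PLCXD, CG9287 and galene) stayed at or below 6.09 CPM. The partner of gny, CG5096, lies on the same strand, at 0.764 and 0.734 CPM untreated and 1.39 to 3.31 CPM transfected. GstE9 lies under imd, at 20.2 and 11.0 CPM untreated and 6.18 to 23.2 CPM transfected. Ent2 lies under CG13766, at 8.41 and 5.87 CPM untreated and 3.09 to 10.4 CPM transfected. The 3' end of Kal1 lies under Slimp, at 7.23 and 11.0 CPM untreated and 7.28 to 15.1 CPM transfected. Kal1 itself stood lower, at 1.46 to 3.52 CPM, in the transfected libraries. RhoGEF4 lies under CG8607, at 6.88 and 3.97 CPM untreated and 2.55 to 9.47 CPM transfected. QC shares its 3' end region with CG32409, which stood at 84.4 and 83.3 CPM in untreated cells and at 61.0 to 103 CPM in the transfected libraries. No overlap was annotated for CG34330, Src42A, Sp7, aru, Sgsh, GNBP3, AOX3, GlyRS or Irc.

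Of 23 lists of functions drawn up for S2R+ cells, 21 held none of the 23 genes, the mitotic list held Klp61F and the aminoacyl-tRNA synthetase list held GlyRS. The lists do not hold every gene of a function: msd5 is not on the mitotic list and GstE9 is not on the glutathione list, so this tally depends on how the lists were drawn. The other genes of the lists with Klp61F and GlyRS were tested against untreated cells, in 3 contrasts that share the untreated libraries. These lists were opened because they hold chosen genes, and the tests use the libraries that made the choice. They describe the list genes and are not independent of the choice of the 23. Counts are given in the order ElavWT, FneWT, Rbp9WT and leave out Klp61F and GlyRS, which were chosen on these libraries. With group as the only term none of the 60 mitotic genes passed in limma, and 1, 1 and 1 were lower at an unadjusted p under 0.05. The share of all genes at that unadjusted limit is not given here, so nothing is read from these unadjusted counts. With the replicate term 5, 7 and 3 mitotic genes were lower and 1, 1 and 4 higher, where over all genes 1.09%, 1.94% and 0.735% were lower and 9.02%, 15.1% and 17.7% higher. The median change of the list was -0.24, -0.26 and -0.11, and that of all tested genes 0.25, 0.28 and 0.42. Lower genes were not particular to this list. Nucleotide synthesis had 3, 2 and 0 lower and 1, 0 and 0 higher of 21, with medians of -0.44, -0.44 and -0.32. Glycolysis and the tricarboxylic acid cycle had 2, 3 and 1 lower and 0, 1 and 1 higher of 28. DNA replication had 0, 4 and 0 lower and 0, 0 and 2 higher of 37. The proteasome list had 0 of 34 in either direction.

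The counts of mitotic genes depended on scaling and on single libraries. Median-ratio scaling with the replicate term gave 7, 13 and 13 lower mitotic genes, beside 2.9%, 6.65% and 4.98% of all genes lower and 7.71%, 12.2% and 10.4% higher. In edgeR with that term 11, 20 and 18 were lower, beside 4.67%, 9.34% and 7.83% of all genes. In limma with the replicate term, the counts fell without untreated replicate 1 and rose without untreated replicate 2. For each protein the count fell when either of its own libraries was left out. It also fell for FneWT without either Rbp9WT library and for ElavWT without either FneWT library. Such fits leave a single library in a group, and the shares of all genes called in them are not given here. Nothing about the mitotic list is read from these shifts.

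Among the mitotic genes, tum, the GTPase-activating subunit of centralspindlin, was lower with all 3 proteins in limma with the replicate term. It stood at 383 and 96.5 CPM untreated, against 118 and 71.6 (ElavWT), 111 and 48.8 (FneWT) and 110 and 75.1 (Rbp9WT). The log2 changes tested for tum were -1.06, -1.38 and -1.07 with an SE of 0.32 (adjusted p = 0.0354, 0.00408 and 0.0208). Relative to the median of all genes, which was not tested, they come to -1.31, -1.66 and -1.49. On that relative scale the spindle midzone gene feo, called lower with ElavWT and Rbp9WT, stood at -1.43 and -1.53. The mitotic kinase gene aurA, the anaphase activator fzy and the kinesin-14 gene ncd were called lower with ElavWT and FneWT. The kinase gene aurB was called lower with FneWT and Rbp9WT, and Incenp and Kmn1 with FneWT. In the other direction cal1, whose product loads the centromeric histone, was higher with all 3 proteins, by tested log2 changes of 1.26, 1.38 and 1.74 (SE 0.29, limma adjusted p = 0.00645, 0.00193 and 0.000199). Relative to the median of all genes cal1 stood at 1.01, 1.10 and 1.32. With Rbp9WT cnn, vih and Cenp-C were also called higher, though with median-ratio scaling cal1 alone was higher, with each protein. A gene called with 1 protein and not with another is not thereby shown to differ between the proteins.

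Of 28 other aminoacyl-tRNA synthetase genes, 0, 2 and 1 were lower and 0, 1 and 2 higher in limma with the replicate term. Median-ratio scaling gave 2, 8 and 7 lower and edgeR 3, 8 and 11. The limma counts for FneWT and Rbp9WT fell without untreated replicate 1, where a single untreated library is left. AsnRS was lower with FneWT by a tested log2 change of -1.39 (SE 0.30, limma adjusted p = 0.00244) and with Rbp9WT by one of -0.97 (adjusted p = 0.0276). SerRS was lower with FneWT by one of -1.07 (limma adjusted p = 0.0185). The mitochondrial enzyme gene CysRS-m was called higher with FneWT and Rbp9WT, and AlaRS-m with Rbp9WT.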

How the data were processed

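Values for 8 libraries were deposited as CPM by gene, which the authors derived from reads counted over genes. Their genome build was dm6, according to the submitters' processing notes, and the aligner, counter and strand setting are not given in sources used here. Columns were matched to samples by title, and 0 other value columns were left aside. Spacing of the CPM values gave whole reads within 0.01 for 100% of values. Of the gene identifiers 13684 matched the Ensembl annotation of the same assembly and 93 did not.

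For the 9114 genes averaging 1 CPM or more, limma 3.58.1 (trend, robust; R 4.3.3) was fitted to log2(CPM + 1), with group as the only term (4 residual degrees of freedom) or with the replicate number added (3). Passing means a Benjamini-Hochberg adjusted p under 0.05 over all tested genes. Same-numbered libraries deviated together from their group means (correlations 0.551 to 0.869 in all 6 pairs of groups), so the numbers pair the libraries in these data. The labels do not say what a number shares, nor that replicates are separate cultures, so the p-values reflect spread among these libraries alone, which may be technical. edgeR 4.0.16 (quasi-likelihood) and DESeq2 1.42.0 on recovered reads were alternatives. Read ratios have exact 95% (Clopper-Pearson) intervals.

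The genes, lists and tests were chosen with earlier results of these data known. Named genes are those with the lowest mean log2 ratio (all 23), genes nearest the limit on either side, and list genes that passed. The last were named after their values were seen. Overlaps, lengths and 3' UTRs come from the annotation. Sequences were not used here. The fits were tested on simulated data.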

Additional observations from a re-analysis of the deposited data

How the results depend on the processing

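The number of genes chosen was 23 and became 7 with a limit of 0.5, 124 with 0.8, 14 with a minimum of 20 CPM and 101 with median-ratio scaling. CPM recomputed without the genes named as rRNA gave 30, of which 21 were among the 23. Leaving out a replicate gave between 23 and 568 genes: 57 without untreated replicate 1, 568 without untreated replicate 2, 42 without ElavWT replicate 2 and 68 without Rbp9WT replicate 2. The median log2 ratio of the 23 was -1.19 in ElavWT, -1.24 in FneWT and -1.19 in Rbp9WT, with median-ratio scaling giving -1.41, -1.52 and -1.58. Leaving out a replicate gave -1.25 to -0.98 in ElavWT, -1.28 to -1.15 in FneWT and -1.53 to -0.82 in Rbp9WT. Mean log2 ratios ran from -3.20 to -0.72 as deposited and from -3.46 to -1.01 with median-ratio scaling, which moved 13 of the 23 by more than the spread between replicates. In the contrasts between proteins 0 of the 23 passed with the replicate block, and 0 with every other setting run (pseudocount, filter, scaling, tools, libraries left out). The block changed the counts of list genes called, from 0 to the values given above. With the block DESeq2 gave 7, 15 and 13 mitotic genes lower (ElavWT, FneWT, Rbp9WT) and 3, 8 and 8 synthetase genes. The shares of all genes called in that DESeq2 fit are not given here, so nothing about the lists is read from its counts. Counts with median-ratio scaling and in edgeR are given above with the list results. Why the block changed the counts was not tested. Alternatives on the RRM mutant libraries were not run. Depth limits low genes most: CG34330 and Kal1 rest on as few as 8 reads in a library.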
